A study of Oryza sativa Japonica Group and Oryza sativa Indica Group and Oryza sativa Indica Group x Oryza sativa Japonica Group with 9 samples.

Results

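On rice chromosome 8, 83 loci were expressed in shoots of the cultivar C92 and were at or near 0 in the cultivar MH63. A locus was taken as a member when its FPKM was at least 1 in all 3 C92 libraries and at most 0.1 in all 3 MH63 libraries. FPKM is the number of sequenced fragments at a locus scaled to its length and to the fragments of the library. The chromosome was read from the locus ID (LOC_Os08g), so the 83 members are a part of the 4187 loci listed for chromosome 8 and of the 55783 loci listed in all. Members could come only from the 1316 chromosome 8 loci that reached FPKM 1 in every C92 library, called candidate loci here. The parental values chose the members, so the contrast of C92 with MH63 is described without a test.

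The labels give 3 groups of 3 libraries from shoots of 14-day-old seedlings. C92 is labelled as japonica rice, and MH63 as indica rice. The F1 is labelled as a cross of indica and japonica with both cultivars as parents, and the labels write the cross in both orders, so the seed parent is not known here. All seedlings stood in water with 16 h of light and 8 h of darkness at 28 °C, with no further treatment named. The replicates are called biological, with no word on which plants went into each. The p-values here therefore reflect the variation among these libraries alone. The loci carry no gene names in the sources used here, and the shoot label could not be set against marker genes for that reason.

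Lines of rice differ in which genes they carry and in which of them are active, above all between the japonica and indica subspecies. A gene can be missing from a line, altered in sequence, or present and silent, and each of these can leave its transcript in a single parent. A hybrid carries 1 copy from each parent, so a gene expressed from the copy of a single parent, at the activity it has there, would stand at 0.5 of that parent's level. Such single-parent genes are a common way to follow the expression of 1 parental copy in a hybrid without sequence differences.

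FPKM summed to between 602005 and 623806 per library, and between 30440 and 33329 loci were above 0. Read numbers are not given. Relative depth, read from the low values, lay between 0.956 and 1.25 of that of C92 library 1. The lowest Pearson correlation between libraries of a group was 0.977, across tested loci, which are not independent replicates. Relative depth was 0.956 to 1.09 in MH63 and 1.00 to 1.14 in C92, and its part in the low MH63 values was not tested. Which reference the reads were aligned to is not given, so MH63 fragments that failed to match it and transcripts that were absent cannot be told apart. In whole shoots, fewer cells of a type and less RNA per cell cannot be told apart either.

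Members were mostly of low to moderate level in C92. The C92 mean ran from 1.13 to 41.2 FPKM with a median of 3.96, against a median of 12.1 over the other 1233 candidate loci of the chromosome. It was below 2 FPKM at 16 members, from 2 to 5 at 30, from 5 to 20 at 30, and at least 20 at 7. The highest C92 library was a median of 1.33 times the lowest at a member, and 2.53 times at the most variable member. The members therefore cover a wide range of levels, most of them below the middle of their chromosome.

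In MH63, 52 of the 83 members (62.7%) were listed at 0 in all 3 libraries. Of the 249 MH63 values, 47 were above 0, spread over 31 members, and the highest was 0.1 FPKM. Among the 432 loci of the other 11 chromosomes that meet the same limits, 267 (61.8%) were listed at 0 throughout. A value of 0 is a level that rounds to 0 at 2 decimals, and the read numbers needed for an upper limit are not given.

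The members nearest to the limits show how sharp the rule was. LOC_Os08g26720 had the lowest C92 value inside the limit, with 2.46, 1.03 and 2.61 FPKM in C92 libraries 1, 2 and 3, and it was listed at 0 in MH63. LOC_Os08g04480 had the highest MH63 value inside it, with 0.10, 0 and 0 FPKM in MH63 and 4.45, 4.72 and 3.72 in C92. Just outside stood LOC_Os08g20580, which was listed at 0 in MH63 but had 1.67, 0.97 and 1.06 FPKM in C92. LOC_Os08g32150 was left out for 0.07, 0.11 and 0.06 FPKM in MH63, beside 1.37, 1.65 and 1.2 in C92. A further view of the rule comes from choosing loci without 1 parental library and then reading that library. Of the loci chosen without C92 library 1, 83 of 89 reached FPKM 1 in it, and the corresponding counts were 83 of 85 for library 2 and 83 of 84 for library 3. The lowest held-out C92 value was 0.35 FPKM. For the MH63 libraries, 83 of 85, 83 of 86 and 83 of 83 loci stayed at or below 0.1 in held-out libraries 1, 2 and 3, and the highest held-out value was 0.3 FPKM. Nearly every locus chosen on the other libraries thus met the limit in the library left out.

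**Figure D1:**
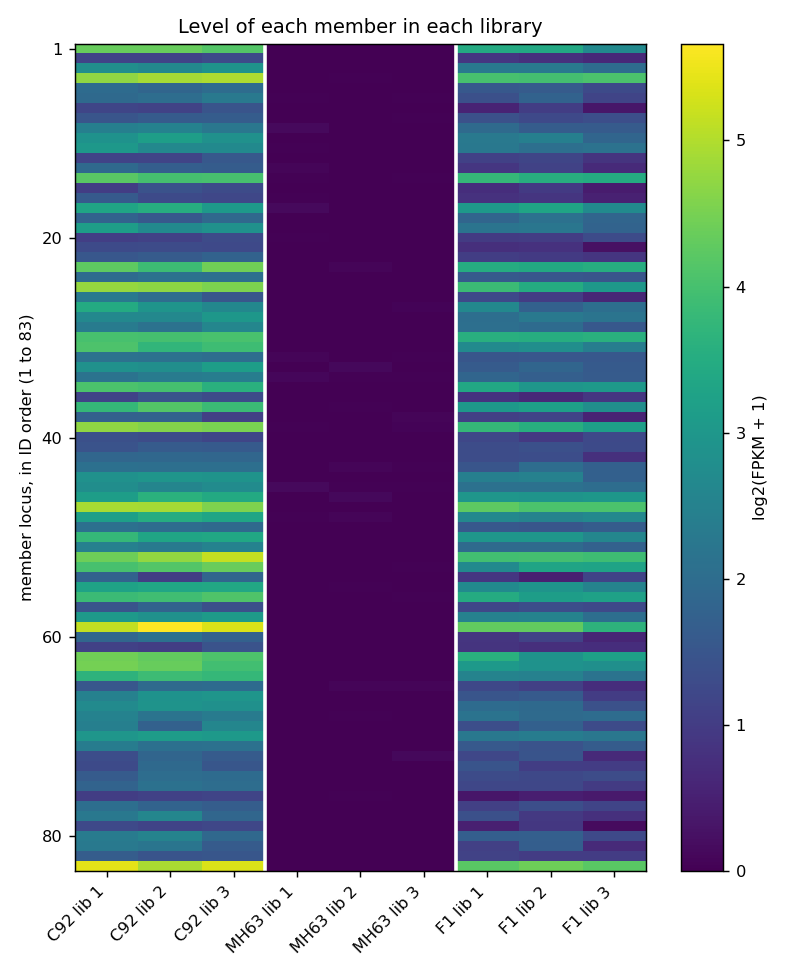
Level of the 83 members (rows, in locus ID order) in the 9 libraries (columns), coloured by log2(FPKM + 1). All C92 columns are above 0, all MH63 columns are at most 0.1 FPKM, and most F1 cells are darker than those of C92.

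The highest members were LOC_Os08g28784, LOC_Os08g42480 and LOC_Os08g02904. LOC_Os08g28784 had 34.4, 49.6 and 39.5 FPKM in C92 libraries 1, 2 and 3, was listed at 0 in MH63, and had 18.7, 18.7 and 11.6 in F1. LOC_Os08g42480 had 42.1, 29.5 and 39.6 FPKM in C92, was listed at 0 in MH63, and had 17.55, 20.4 and 17.7 in F1. LOC_Os08g02904 had 25.35, 28.7 and 29.97 FPKM in C92, 0, 0.02 and 0 in MH63, and 15.2, 14.7 and 15.55 in F1. At each of the 3 loci, every F1 library lay below every C92 library and above every MH63 library. F1 against C92 gave a log2 change of -1.30 (SE 0.19, limma adjusted p = 0.00179) for LOC_Os08g28784, of -0.95 (SE 0.13, adjusted p = 0.00156) for LOC_Os08g42480 and of -0.84 (SE 0.09, adjusted p = 0.000414) for LOC_Os08g02904. Changes were taken on the scale of log2(FPKM + 1), where those of low loci come out too small.

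Along the chromosome, members were spread over most of the ID range and were sparse near its far end. Chromosome 8 IDs run in order along the chromosome, and members reached from LOC_Os08g01514 to LOC_Os08g42480. In blocks of 5000 ID numbers, members made up 5.49% of candidate loci in the first block (below 5000), 6.83% in the next, 12.7% from 10000 to 15000, 8.33% from 15000 to 20000 and 7.94% from 20000 to 25000. The share was 13.3% from 25000 to 30000 and 7.14% from 30000 to 35000. It was 2.96% from 35000 to 40000 (6 of 203 candidate loci) and 1.75% from 40000 to 45000 (4 of 228), and 0 of 17 candidate loci above that were members. The longest stretch without a member held 217 candidate loci, between LOC_Os08g36600 and LOC_Os08g41590, and 132 candidate loci followed the last member.

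Members were densest between LOC_Os08g10800 and LOC_Os08g14330. In windows of 50 neighbouring candidate loci, the count of members reached 12 (24%), with a median of 3 over all 1267 windows and 0 in 266 of them. The first window with 12 ran from LOC_Os08g10800 to LOC_Os08g13910. Together with 6 others that held as many, it spans 61 candidate loci with 13 members. Values near 0 in MH63 were not a property of the whole first window: of its 38 other candidate loci, 30 were at FPKM 1 or more in every MH63 library. Of these 38, 13 were higher and 6 lower in C92 than in MH63 by limma, beside 19.2% of all tested loci that were higher and 14.9% that were lower in C92. The 38 had to reach FPKM 1 in every C92 library and the tested loci did not, so these shares are not on equal terms. In this window lay 2 MH63-only loci. It was singled out for its values after they were seen, so these counts are a description.

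**Figure D2:**
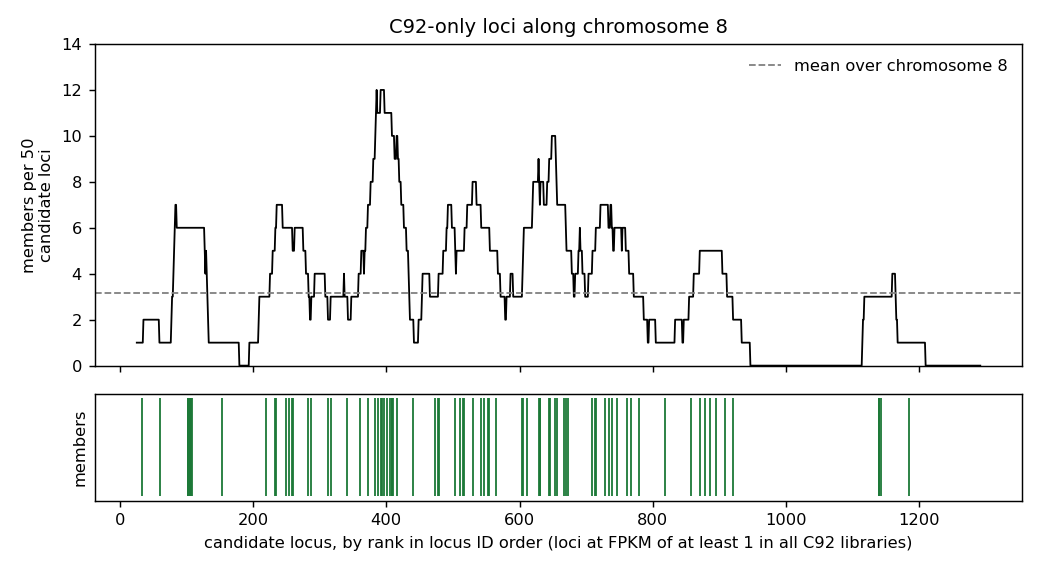
Number of members in each window of 50 neighbouring candidate loci (upper panel, drawn at the window's centre, dashed line at the chromosome's mean) and the rank of each member among the 1316 candidate loci (lower panel, 1 line per member). The count peaks at 12, and a gap of 217 candidate loci precedes the last 4 members.

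Most members did not follow each other directly. A run was counted where members stood next to each other with no other candidate locus between them, and 10 runs held 24 of the 83 members (28.9%), while 59 members stood alone. The runs had 2 members in 7 cases, 3 members in 2 and 4 members in 1. Over all listed loci, silent ones included, 8 runs held 19 members. A median of 5 candidate loci lay between neighbouring members. On the other chromosomes, 151 of the 432 C92-only loci (35.0%) stood in runs, the longest of 5. Members were 6.31% of candidate loci, and C92-only loci were 2.35% on the other chromosomes, so these shares in runs are not on equal terms. The share in runs under an even placement was not computed.

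The longest run went from LOC_Os08g02990 through LOC_Os08g02996 and LOC_Os08g03002 to LOC_Os08g03020, at low level throughout. LOC_Os08g02990 had 2.92, 2.59 and 2.99 FPKM in C92 and 1.96, 2.07 and 1.40 in F1. LOC_Os08g02996 had 2.80, 3.04 and 3.86 FPKM in C92 and 1.60, 2.42 and 1.23 in F1. LOC_Os08g03002 had 1.26, 1.18 and 1.78 FPKM in C92 and 0.48, 1.04 and 0.27 in F1. LOC_Os08g03020 had 1.81, 2.10 and 2.14 FPKM in C92 and 1.63, 1.38 and 1.55 in F1. At all 4 loci, every F1 library lay below every C92 library. None of the 4 exceeded 0.02 FPKM in MH63, and the F1 ratio to C92 ran from 0.424 to 0.754 within the run. F1 fell below C92 at LOC_Os08g02990 (log2 change -0.45, SE 0.12, limma adjusted p = 0.0238), LOC_Os08g02996 (log2 change -0.64, SE 0.16, adjusted p = 0.0218) and LOC_Os08g03002 (log2 change -0.61, SE 0.18, adjusted p = 0.0339), and the adjusted p was 0.0925 at LOC_Os08g03020. The call of LOC_Os08g02990 was lost without C92 library 1 or 3 or F1 library 3, and that of LOC_Os08g02996 without C92 library 2 or 3 or F1 library 1 or 3, with adjusted p up to 0.0778 and 0.0787 over all alternatives. That of LOC_Os08g03002 was lost in 7 of 16 alternatives, among them those without any single C92 library or F1 library 1 or 3, with adjusted p up to 0.112.

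The runs of 3 held members of unequal level. From LOC_Os08g13900 to LOC_Os08g13910, C92 means ranged from 3.26 to 14.0 FPKM and F1 ratios from 0.331 to 0.583. Its highest member, LOC_Os08g13900, had 15.8, 12.2 and 14.0 FPKM in C92, was listed at 0 in MH63, and had 5.52, 6.0 and 4.27 in F1 (log2 change against C92 -1.26, SE 0.13, limma adjusted p = 0.000379). From LOC_Os08g26700 to LOC_Os08g26720, C92 means ranged from 2.03 to 26.9 FPKM, a span of 13.2 times, and F1 ratios from 0.407 to 0.531. LOC_Os08g26700 had 20.2, 25.6 and 35.0 FPKM in C92 and 14.4, 14.6 and 13.9 in F1, so its C92 libraries varied far more than its F1 libraries (log2 change -0.83, SE 0.16, adjusted p = 0.00704). Levels thus differed between neighbours in these runs. Strand is not stated and the positions of the loci were not used here, so fragments shared by overlapping neighbours cannot be told apart.

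Members often carried an ID that does not end in 0. IDs of this series were first given in steps of 10 along the chromosome, and numbers between the steps were filled in as loci were added later. Of the 83 members, 23 (27.7%) had such an ID, against 91 of the 1233 other candidate loci (7.38%), 5.54% of all loci listed on chromosome 8 and 18.5% of C92-only loci of the other chromosomes. The share was 11 of 46 (23.9%) for members and 29 of 329 (8.81%) for other candidate loci where the C92 mean was under 5 FPKM. At 5 FPKM or more it was 12 of 37 (32.4%) and 62 of 904 (6.86%). Members thus held more of these IDs at both levels. No test was made of these shares.

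Chromosome 8 held 16.1% of the 515 C92-only loci of the genome and 7.51% of all listed loci. As a share of candidate loci, 6.31% on chromosome 8 were C92-only, against 2.35% over the other chromosomes, where the share ranged from 1.02% on chromosome 7 to 4.12% on chromosome 10. MH63-only loci, chosen by the same limits with the parents exchanged, did not show this order. They were 1.72% of chromosome 8 loci expressed in MH63 (21 of 1219), within the range of 0.399% to 2.85% on the other chromosomes. The reference and its list of loci are not given, so whether they serve both parents equally is not known. The exchange of parents may therefore not be on equal terms. The densest window of 50 reached 24% on chromosomes 4, 8 and 10 and 26% on chromosome 12. On the remaining chromosomes it was lower, from 6% on chromosome 5 to 18% on chromosomes 1, 6 and 9. These counts come from the values that chose the loci and carry no test.

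The F1 libraries took no part in the choice of members. All 83 members were above 0.1 FPKM in every F1 library, and the lowest F1 value was 0.12 FPKM, at LOC_Os08g36600 in library 3. All 3 F1 libraries reached FPKM 1 at 59 members. The F1 mean had a median of 2.31 FPKM and ran from 0.33 to 18.5. Transcripts of every member were therefore detected in the hybrid, in each of its libraries.

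F1 was compared with C92 to measure how far the hybrid kept the level of the expressing parent. Of the 83 members, 67 fell in F1 against C92 by limma at an adjusted p below 0.05 and 0 rose, beside 13.7% of the 21447 tested loci that were lower and 10.6% that were higher. Every F1 library lay below every C92 library at 72 members, beside 20.7% of tested loci. All members were among the tested loci because the rule placed them at FPKM 1 in 3 libraries, and the C92 libraries also chose them. The fit shares 1 spread over all groups, and the rule held MH63 values of members at or below 0.1 FPKM. This lowers the shared spread at members by choice. Their SE and adjusted p in every comparison with F1 can therefore be too small, and the shares of all tested loci are not on equal terms. The median log2 change was -0.66 over members, against 0.03 over all tested loci. C92-only loci of the other chromosomes showed nearly the same picture, with 329 of 432 (76.2%) lower and a median of -0.65. The 16 members not called had a median C92 mean of 2.02 FPKM and a median ratio of 0.738, and 15 of them averaged under 5 FPKM in C92. The 67 called had medians of 5.91 FPKM and 0.505. At C92 means of at least 5 FPKM, 36 of 37 members were called. The count called was 55 without F1 library 3, the lowest over the single libraries left out.

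Against MH63, 82 members rose in F1 by limma, beside 11.5% of all tested loci, and every F1 library lay above every MH63 library at all 83, beside 22.1%. The MH63 values had been chosen to be near 0, so little is read from this count. The member not called, named for its result, was LOC_Os08g36600, with 0.41, 0.88 and 0.12 FPKM in F1 libraries 1, 2 and 3, 1.38, 1.21 and 1.32 in C92, and 0 throughout in MH63 (limma adjusted p = 0.0628).

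Set against C92, the F1 level was close to 0.5 at many members. The F1 mean divided by the C92 mean had a median of 0.541, with quartiles of 0.431 and 0.608. It ran from 0.272 to 1.18. The ratio was between 0.4 and 0.6 at 43 members, between 0.25 and 0.4 at 14, between 0.6 and 0.75 at 19 and at least 0.75 at 7. It exceeded 0.5 at 49 members and 1 at a single member. For the other candidate loci of the chromosome, most of them expressed in both parents, the median ratio was 1.01. Across members, the ratio had a Spearman correlation of -0.04 with the C92 level (83 members, which share the same libraries).

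At C92 means of at least 5 FPKM, the highest ratios were those of LOC_Os08g08570, LOC_Os08g13795 and LOC_Os08g20670. LOC_Os08g08570 had 9.06, 10.5 and 7.39 FPKM in C92 and 7.22, 8.83 and 5.49 in F1, a ratio of 0.799, and its groups overlapped (limma adjusted p = 0.228 against C92). LOC_Os08g13795 was among the steadiest members, with 15.1, 15 and 15.4 FPKM in C92 and 10.97, 10.6 and 10.99 in F1, a ratio of 0.716 without overlap (log2 change -0.45, SE 0.08, adjusted p = 0.00488). LOC_Os08g20670 had 7.89, 11.3 and 9.79 FPKM in C92 and 6.81, 6.61 and 7.01 in F1, a ratio of 0.706 (log2 change -0.43, SE 0.12, adjusted p = 0.0325). Its call was lost in 8 of 17 alternatives, among them those without C92 library 2 or 3 or any single F1 library, with adjusted p up to 0.2.

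The lowest ratios at that level were those of LOC_Os08g31440, LOC_Os08g13910 and LOC_Os08g30719. LOC_Os08g31440 had 4.60, 6.44 and 6.76 FPKM in C92 and 1.82, 2.03 and 1.00 in F1, a ratio of 0.272 (log2 change -1.41, SE 0.18, limma adjusted p = 0.000975). LOC_Os08g13910 had 6.33, 5.94 and 7.92 FPKM in C92 and 2.07, 2.58 and 2.03 in F1, a ratio of 0.331 (log2 change -1.26, SE 0.13, adjusted p = 0.000285). LOC_Os08g30719 had 11.6, 13.8 and 12.7 FPKM in C92 and 4.79, 4.59 and 3.43 in F1, a ratio of 0.337 (log2 change -1.38, SE 0.12, adjusted p = 0.00013). F1 stayed far below C92 at all 3 loci, with no overlap of libraries, and their calls held in every alternative in which they were tested.

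**Figure D3:**
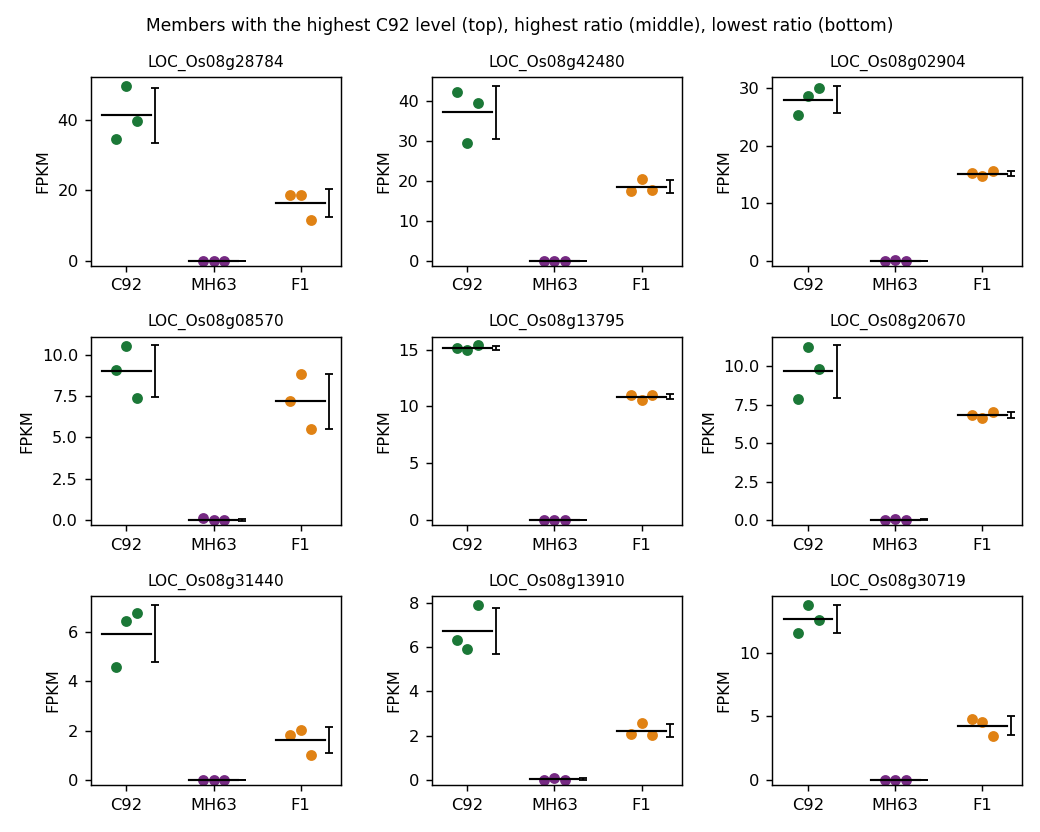
FPKM (vertical axes, each from about 0) of 9 members in C92, MH63 and F1, with 1 point per library, the group mean as a line and the SD as a bar beside it (n = 3). The top row shows the highest C92 means, the middle row the highest and the bottom row the lowest F1 ratios at C92 means of at least 5 FPKM. F1 points overlap C92 points at LOC_Os08g08570 only.

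F1 was also set against the arithmetic mid-parent, which for these loci is close to the 0.5 share. Only 7 members departed from it by limma: 6 rose, beside 3.36% of all tested loci, and 1 fell, beside 5.58%. The 6 were LOC_Os08g07774, LOC_Os08g08680, LOC_Os08g09760, LOC_Os08g13795, LOC_Os08g18079 and LOC_Os08g31780. The call was lost in 10 of 18 alternatives for LOC_Os08g07774, in 16 of 17 for LOC_Os08g09760, in 15 of 17 for LOC_Os08g18079 and in 12 of 17 for LOC_Os08g31780. LOC_Os08g08680 was the member whose F1 mean exceeded C92, with 1.95 to 2.74 FPKM in C92 and 2.59, 3.29 and 2.59 in F1. Its F1 level was 0.80 above the mid-parent on the log2 scale (SE 0.11, adjusted p = 0.00698) and was not called against C92 (adjusted p = 0.327). LOC_Os08g13795 stood 0.47 above the mid-parent (SE 0.08, adjusted p = 0.0124). These calls of LOC_Os08g08680 and LOC_Os08g13795 held when any single library was left out, and were lost only when F1 libraries 1 and 2 were both left out (adjusted p = 0.0512 and 0.0712). The fallen member was LOC_Os08g30719 (log2 change -0.49, SE 0.12, adjusted p = 0.0387), whose call was lost in 9 of 18 alternatives and which lay above a log-scale mid-parent (log2 change 0.50, adjusted p = 0.0172).

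The count of 7 was small and unstable. It was 6 without C92 library 1 and 3 without C92 library 2 or 3. Leaving out MH63 library 1 or 2 gave 2, and leaving out MH63 library 3 gave 4. Leaving out F1 library 1 gave 3, and F1 library 2 or 3 gave 2. Rises and falls numbered 6 and 3 after quantile normalization and 4 and 2 with median-ratio scaling. Among C92-only loci of the other chromosomes, 32 of 432 rose (7.41%) and 18 fell (4.17%), against 7.23% and 1.2% of the members. A p that misses the threshold does not show that the other members stood at the mid-parent.

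F1 library 3 gave lower ratios than the other F1 libraries. The median over members was 0.559 in library 1, 0.569 in library 2 and 0.484 in library 3. Library 3 was the lowest of the 3 at 55 members (66.3%), against 42.7% of the other candidate loci of the chromosome. The lower quartile fell further than the median in library 3, to 0.297, from 0.480 and 0.485 in libraries 1 and 2. The ratio was below 0.25 at 9 members in library 3, at 1 in library 1 and at 2 in library 2. C92-only loci of the other chromosomes had medians of 0.587, 0.558 and 0.478, and library 3 was the lowest at 69.7% of them. The shift of library 3 was thus not limited to chromosome 8. Without library 3, the median ratio was 0.575 and 55 members were called against C92, while leaving out C92 library 1, 2 or 3 gave 60, 58 and 59 calls and F1 library 1 gave 62. The part of library 3 in the calls was not tested apart from the loss of a replicate.

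The 21 MH63-only loci of chromosome 8 gave the opposite order between libraries. Their ratio to the MH63 mean had a median of 0.354 over the F1 mean, and of 0.373, 0.284 and 0.425 in F1 libraries 1, 2 and 3. It exceeded 0.5 at 3 of 21 loci, against 49 of the 83 members. In library 3, the medians of the C92-only and MH63-only loci, 0.484 and 0.425, lay closer together than in library 2, where they were 0.569 and 0.284. Loci are not replicates, so no test of this gap was made. Whether the reference serves both parents equally is not known, so both sets may not be on equal terms.

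**Figure D4:**
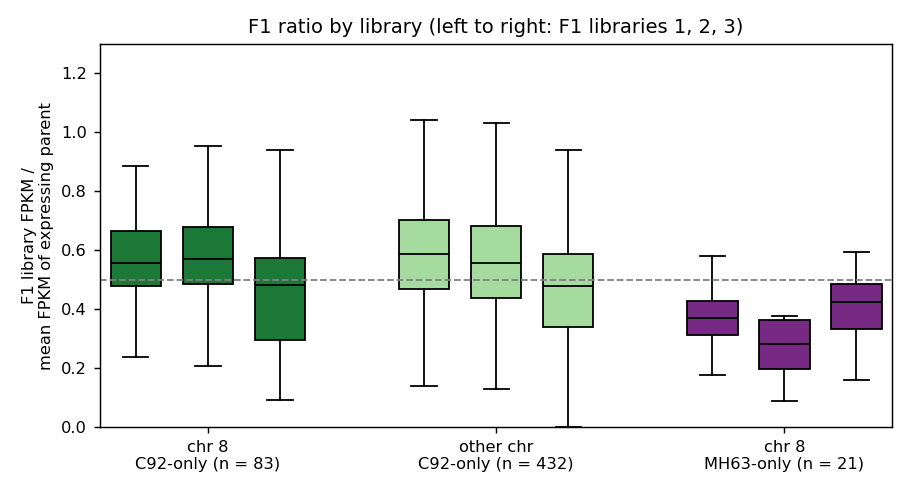
FPKM of each F1 library divided by the mean FPKM of the expressing parent, for the members, for C92-only loci of the other chromosomes and for MH63-only loci of chromosome 8. Boxes show quartiles and median over loci, whiskers reach the farthest value within 1.5 times the box height, values beyond are not drawn, and the dashed line marks 0.5. Library 3 is the lowest of the 3 in both C92-only sets and the highest in the MH63-only set.

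The ratio also varied along the chromosome. By blocks of 5000 ID numbers, the median ratio of members was 0.547, 0.582, 0.573, 0.501, 0.587 and 0.601 in the 6 blocks up to 30000. It was 0.460 from 30000 to 35000 (12 members), 0.381 from 35000 to 40000 (6 members) and 0.502 from 40000 to 45000 (4 members). From 35000 to 40000, 5 of 6 members had a ratio below 0.5, and from 20000 to 25000, 0 of 5 did. By library, the medians from 35000 to 40000 were 0.420, 0.468 and 0.310 in libraries 1, 2 and 3, against 0.674, 0.601 and 0.566 from 20000 to 25000. The libraries are divided by the same C92 means, so their ratios are not independent of each other. The other candidate loci had median ratios of 0.953 and 0.996 in the blocks from 30000 to 40000, within the range of 0.891 to 1.05 over the chromosome. MH63-only loci there had median ratios to MH63 of 0.275 (4 loci) and 0.364 (2 loci), against 0.354 over all 21 of the chromosome. Whether their ratios shifted along with those of the members was not tested. Ratios of neighbouring members were only weakly alike (Spearman correlation 0.17 over 82 neighbouring pairs, all from the same libraries). The blocks hold few members and were compared after their values were seen.

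**Figure D5:**
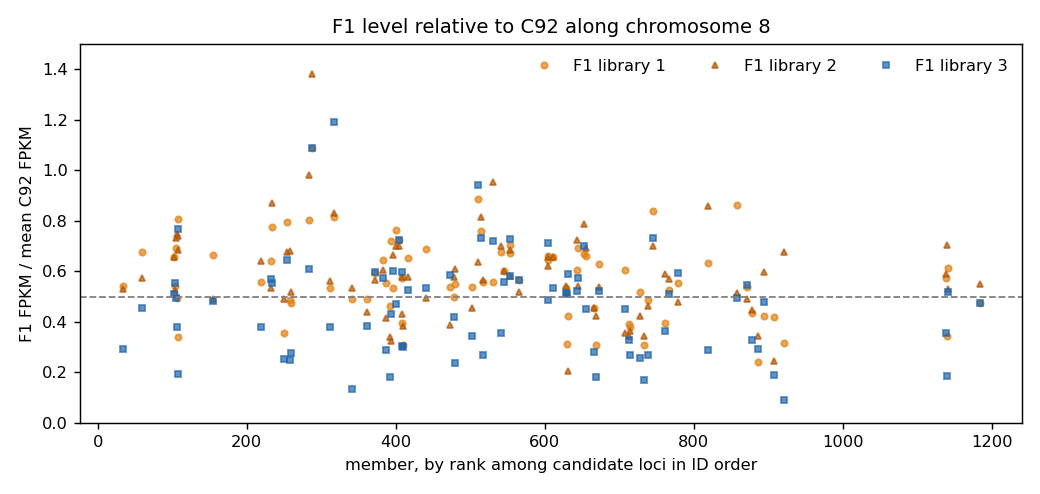
FPKM of each F1 library divided by the mean C92 FPKM (vertical axis) for the 83 members, placed by their rank among candidate loci in ID order (horizontal axis), with 1 symbol per F1 library and a dashed line at 0.5. Most points lie between 0.25 and 0.75, and many of the lowest belong to library 3.

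Between chromosomes, the ratio of chromosome 8 was ordinary. The median of C92-only loci was 0.541 on chromosome 8 and ranged from 0.454 to 0.586 on the other chromosomes, where 8 had a higher median. On chromosome 8, the share of candidate loci at or below 0.1 FPKM in every MH63 library lay outside the range of the other chromosomes. The level those loci kept in the hybrid lay within the range of the other chromosomes.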

How the data were processed

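The authors deposited FPKM values, 1 per locus and library with 2 decimals. Reads were aligned with HISAT2 2.0.5, per the submitters' processing notes. Build, annotation, strand setting and the program behind the FPKM values were not given in the sources used here. A RefSeq gene table matched 0 of the locus IDs, so loci have no names, roles or sequences here.

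Members, candidate loci, runs, windows and ratios were computed from FPKM as deposited. Values of log2(FPKM + 1) were tested with limma 3.58.1 (R 4.3.3), in 1 fit to all 9 libraries with a trend in the variance prior, at the 21447 loci that reached FPKM 1 in 3 or more libraries. P-values were two-sided and adjusted by Benjamini-Hochberg over all tested loci, and calls were made at 0.05. The arithmetic mid-parent took its error by the delta method. Relative depth is the commonest ratio between libraries of values from 0.2 to 1.5 FPKM. The fit was tested on simulated data with equal group means, apart from shifts added in F1. No simulated locus was silent in a single parent, so that test does not cover the state of the members.

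Members named were the ends of the run of 4, the highest C92 means overall and in the 3 longest runs, the highest and lowest ratios at C92 means of at least 5 FPKM, the largest changes called against the mid-parent, and loci at the limits. Other named loci are described as such or bound a stretch. Members and rules were chosen with earlier results of these data known. Alternatives changed the pseudocount, filter, scaling, limits, libraries and replicate block.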

Additional observations from a re-analysis of the deposited data

How the results depend on the processing

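Only 22 members had a mean FPKM of at least 5, of which 21 fell against C92, 22 rose against MH63 and 3 departed from the mid-parent. The count of 7 against the mid-parent was 2 with a pseudocount of 0.1, 2 with no filter and 50 with a log-scale mid-parent, and 4 with F1 libraries 1 and 2 both left out, an alternative chosen after seeing the data. With these left out the median ratio was 0.484. With single libraries left out, the count against the mid-parent was 2 to 6, against C92 55 to 67 and against MH63 77 to 82. Replicate numbers did not pair the libraries (same-number correlations from -0.432 to 0.343, with 4 of 9 above 0.1, and 5 of 9 libraries closest to their own number); with the replicate block, 67 members fell against C92, 81 rose against MH63 and 4 departed from the mid-parent. Requiring 0 in every MH63 library left 52 members and a longest run of 2. The median ratio was then 0.505, against 0.541 by the main rule, and it was 0.526 with an MH63 limit of 0.05. With single parental libraries left out, the rule found 83 to 89 members. Over all alternatives, 95 summary values were taken as kept and 19 as moved. Counts and run lengths had to stay within 1.5 times, and median ratios within the SD of the library medians (0.046). The window share had to stay between 13.1% and 38.2%, a binomial interval that treats loci as independent. It is wide, so 15% in windows of 100 was taken as kept. Counts were compared without their totals, so 21 and 22 of 22 members were taken as moved. Of the 67 calls against C92, 45 held in every alternative that tested the locus. A log-scale mid-parent lies below the arithmetic one where the parents differ, so its count of 50 is against a lower reference. The cause of the other moved counts was not tested. Without read numbers, counting error at low FPKM is unknown.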
